A study of Mus musculus with 3 samples.

Results

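Antisense non-coding RNAs were described in the nuclear fraction of mouse macrophages. The set was made of all annotated genes that have at least 1 transcript of type antisense and none of type protein-coding, and whose expected count averaged at least 50 over the 3 libraries; Snhg genes and Gas5 were left out by name. An expected count is the number of reads that a model assigns to a gene. Of 55536 annotated genes, 3088 met the rule on transcript types and 356 of these reached the count. One further gene, Snhg14, reached it and was left out by its name, and the other 2731 lay below. Gene type was antisense for 321 of the 356 genes and processed transcript for 35. The genes were thus chosen by their mean expected count in these libraries, so their being counted is not a finding.

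The cells were bone marrow-derived macrophages, phagocytes grown in culture from marrow progenitors, of C57BL/6J mice. All had been stimulated for 15 min with Lipid A at 100 ng/ml, the membrane anchor of bacterial lipopolysaccharide and the ligand of Tlr4, and total RNA of the nuclear fraction was sequenced after ribosomal RNA had been depleted. The sample description calls the fraction nucleoplasmic where other labels say nuclear, so how much chromatin-bound RNA it holds is not known. The labels give 1 group of 3 biological replicates and name the same donor entry for each of them. Whether the spread between libraries is technical or biological therefore cannot be told. Age and sex were not collected. Replicate 2 started from 500 ng of RNA and replicates 1 and 3 from 1 µg. No untreated sample was analysed here, so no value below is a response to Lipid A.

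Antisense RNAs are transcribed from the strand opposite to another gene, often within its body or from a start site that faces away from its promoter. Many are spliced, stay in the nucleus and are turned over quickly. A few, such as Kcnq1ot1 and Airn, silence genes near them on the paternal chromosome, and others carry microRNAs or small nucleolar RNAs in their exons or introns. What most of them do is not known.

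The libraries held between 17345644 and 20947006 expected counts on annotated genes. The summed level of 8 macrophage markers ran from 2755 to 3760 TPM, a transcript level scaled by gene length and library. T cell, B cell, neutrophil, fibroblast and mast cell lists summed to at most 1.39 TPM in any library, with Cd3e, Ly6g, Pdgfra and Mcpt4 at 0, and 5 endothelial markers summed to between 24.0 and 38.1 TPM. Replicate 1 stood apart from the others. Among the 12096 genes, whatever their type, that averaged 50 counts or more, 460 were at least 2-fold higher and 328 at least 2-fold lower there than in each other library, against 43 and 129 in replicate 2 and 117 and 65 in replicate 3.

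Kcnq1ot1 (chr7:143203458-143296549, minus strand, GRCm38) was the most abundant antisense RNA by count. It is an unspliced RNA that starts in an intron of the potassium channel gene Kcnq1 and takes part in the imprinting of the surrounding cluster. Replicates 1 to 3 gave it 18756, 14675 and 10009 expected counts. Replicate 1 was highest and replicate 3 lowest. Because the annotated RNA is long, with 93092 exon bases, the same counts gave only 6.30 ± 2.57 TPM (SD, n = 3). Kcnq1 itself was at 0.143 ± 0.0874 TPM, with 10, 7 and 5 counts. Airn (chr17:12741311-12860136, plus strand), which overlaps and silences the growth factor receptor gene Igf2r, had 224, 184 and 167 counts and 9.45 ± 2.40 TPM. Igf2r stood at 34.8 ± 7.03 TPM.

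The promoters of these imprinted RNAs are shown because each RNA starts inside its coding partner. This stretch of the partner therefore holds the start of the antisense RNA. Whether the windows overlap an annotated coding exon was not tested. Each runs from 250 bases before the RefSeq start to 50 bases after it (GRCm38.p6), 5′ to 3′ on the strand of the antisense RNA, with matches to the searched motifs in capitals. The Kcnq1ot1 window is chr7:143296498-143296797 on the minus strand, and the Airn window is chr17:12741061-12741360 on the plus strand.
Kcnq1ot1: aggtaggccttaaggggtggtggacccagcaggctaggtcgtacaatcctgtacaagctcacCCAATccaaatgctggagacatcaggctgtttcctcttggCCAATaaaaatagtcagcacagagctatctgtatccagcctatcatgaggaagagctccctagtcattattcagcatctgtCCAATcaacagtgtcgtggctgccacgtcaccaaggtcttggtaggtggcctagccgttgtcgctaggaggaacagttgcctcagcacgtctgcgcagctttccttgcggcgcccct
Airn: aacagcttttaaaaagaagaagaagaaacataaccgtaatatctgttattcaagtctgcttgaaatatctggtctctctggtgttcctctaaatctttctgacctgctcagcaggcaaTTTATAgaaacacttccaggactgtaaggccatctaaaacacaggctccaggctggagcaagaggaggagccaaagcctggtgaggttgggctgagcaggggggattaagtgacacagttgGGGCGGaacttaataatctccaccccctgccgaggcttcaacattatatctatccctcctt
The Kcnq1ot1 window holds 3 copies of CCAAT, which begin 188, 148 and 67 bases before the start, and 9 CpG dinucleotides. The Airn window holds TATAAA on the opposite strand, GGGCGG on its own strand and 3 CpG dinucleotides. RefSeq promoters could be matched by symbol for 147 of the 356 genes. On either strand, CCAAT was found in 36.7% of these windows and in 37.4% of all 32851 RefSeq promoters, GGGCGG in 36.7% and 35.7%, and TATAAA in 10.9% and 13.6%. The shares for GAGGAAGT were 2.72% and 3.20%, for TGACTCA 4.08% and 5.20% and for TGACGTCA 0.68% and 1.79%. The median window held 7 CpG dinucleotides in both sets. These matches describe letters and are not binding sites.

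F630028O10Rik (chrX:96239926-96243636, plus strand) was second by count and first by TPM. Its exons contain the whole 110-base gene of miR-223, a microRNA of myeloid cells. Its counts were 14426, 7796 and 7877 in replicates 1 to 3, or 143 ± 59.0 TPM (SD, n = 3). Replicate 1 was well above the others, which were nearly equal. No protein-coding gene lies opposite it or starts within 1000 bases head to head, so this RNA is antisense by its annotated type and not by position. The mature microRNAs that this transcript carries are printed from RefSeq with the seed, bases 2 to 8, in capitals.
miR-223-5p: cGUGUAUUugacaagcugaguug
miR-223-3p: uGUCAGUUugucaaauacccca
The microRNA gene itself was listed at 0 in each library, and the sequenced fragments were longer than a mature microRNA by the size range in the labels.

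Tug1 (chr11:3639785-3649673, minus strand), a nuclear long non-coding RNA transcribed away from the chromatin silencing gene Morc2a, came next. It had 3805, 4887 and 4207 counts in replicates 1 to 3 and 42.7 ± 9.10 TPM, above the 17.9 ± 3.86 TPM of Morc2a. Their nearest annotated starts are 86 bases apart. The libraries differed little for Tug1 beside the spread of the genes above.

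The 12 most abundant genes also held AC119228.1, which lies opposite Cd274 (the checkpoint ligand PD-L1), BE692007 opposite the myeloid membrane protein gene Ms4a6c, Gm45606 opposite the amino acid transporter gene Slc43a2 and 4933423P22Rik opposite Ptprj (the receptor phosphatase CD148). The others were Gm46411 opposite the zinc finger factor gene Rreb1, Gm16185 opposite the mitochondrial carrier gene Slc25a36, Gm40578 opposite Tnfaip2, Brip1os opposite the Integrator subunit gene Ints2, and Zeb2os opposite Zeb2, a transcription factor of tissue macrophages. BE692007 had 1903, 2730 and 2234 counts in replicates 1 to 3. Zeb2os had 778, 822 and 1092 counts and 43.3 ± 9.19 TPM, while Zeb2 reached 363 ± 72.8 TPM, the highest level of any partner. The remaining ones averaged 959 to 2675 counts. The plot of counts of these genes shows that the libraries lie farthest apart for AC119228.1 and Gm40578. They were also spread for Kcnq1ot1, F630028O10Rik and Gm45606, the last with 1044.5 to 1929.7 counts, and lay closer for the others.

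**Figure D1:**
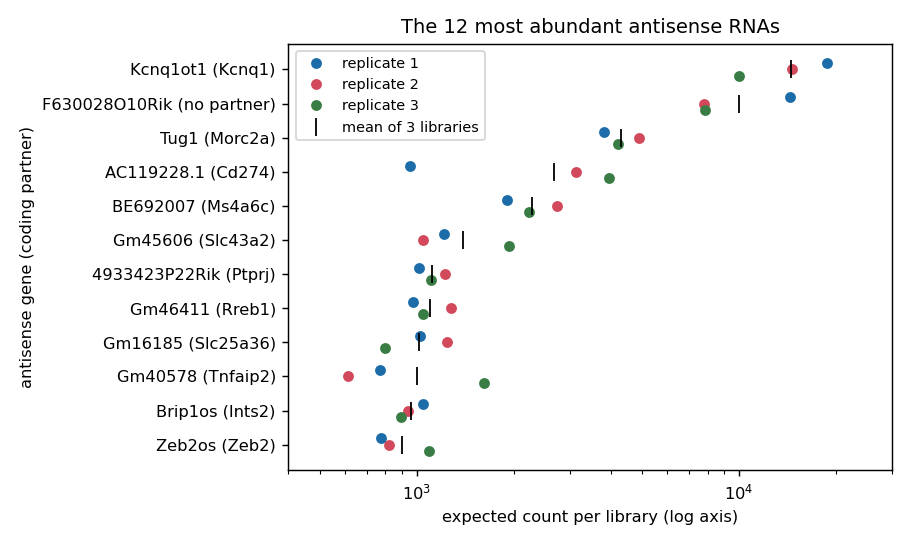
Expected counts (log axis) of the 12 most abundant antisense genes, named with their coding partner; coloured points are the 3 libraries and the black tick is their mean. Kcnq1ot1 spans 10009 to 18756 counts, and replicate 1 of AC119228.1 sits at 952, below 3114 and 3957.

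Together the 356 genes held 0.577% of the expected counts of annotated genes in replicate 1, 0.538% in replicate 2 and 0.442% in replicate 3. The 10 most abundant held 40.3 ± 2.37% (SD, n = 3) of the set's counts, and Kcnq1ot1 with F630028O10Rik held 31.1% in replicate 1 but 19.3% in replicate 3. Most were far lower. The median gene had 2.82 ± 0.560 TPM, 39 genes averaged at least 10 TPM and 18 averaged below 1 TPM. By count, 155 genes lay between 50 and 100, and 282 had at least 50 in every library. In the second deposited table, which lists transcripts, those of type antisense held 95.3 ± 0.345% of the set's counts and retained-intron transcripts 4.14 ± 0.364%.

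The genes just inside the threshold were Gm48780 (opposite the arginase gene Arg2), Gm34882 (opposite Rab3gap2) and C130040N14Rik, with means of 50.7, 50.7 and 51.1 counts. Just outside lay 4930551O13Rik (opposite the autophagy receptor gene Optn) at 49.7, Lrp8os2 at 49.7 and Galnt6os at 49.1. Lrp8os2 had 118, 18 and 13 counts, so replicate 1 alone brought it near the threshold.

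Whether reads could be assigned to a strand decides how these values can be read. Expected counts of 195 of the 248 genes whose exons overlap coding exons of the other strand were not whole numbers, against 7 of the 108 genes without such overlap (tolerance 0.02 counts). For 125 of those 195, the count of the antisense gene and that of its partner added up to a whole number in all 3 libraries. AC119228.1 and Cd274, for instance, had 951.7 and 1572.3 counts in replicate 1. Reads had therefore been divided between genes on opposite strands, and where the genes overlap, RNA of the antisense gene and RNA of its partner cannot be told apart. The same holds for exons that lie in an intron of the partner, where an unspliced partner RNA would be counted for the antisense gene. Levels given above, such as those of Zeb2os and Airn, carry this limit, and so does every level below.

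By position, 347 of the 356 genes (97.5%) overlapped the body of a protein-coding gene on the other strand, compared with 91.8% of antisense genes below the threshold. Exons overlapped coding exons in 248 genes. The bodies of another 99 overlapped a coding gene without any overlap of exons. Some of these lay mostly outside coding genes, such as Airn with 76.2% of its exon bases. A start within 1000 bases of a coding start, head to head, was found for 146 genes (41.0%), against 31.9% below the threshold, taking the nearest pair of annotated transcript starts. The counted genes had a median of 2510 exon bases and the others 856, while the median span was nearly the same, 5962 and 5934 bases. Longer exons collect more reads at the same level, and the rule used counts, so these differences describe the set and were not tested.

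Partner genes were taken as the coding gene with the longest overlap on the other strand or, for 1 gene, the coding gene that starts head to head. They numbered 334 for 348 antisense genes, since 8 partners had 2 antisense genes and 3 partners had 3 (Arhgap10, Lrmda and Zbtb20). The partners were at a median of 14.0 ± 1.70 TPM, and the 11960 protein-coding genes that averaged 10 counts or more were at 6.70 ± 1.07 TPM. On the log2(TPM + 0.1) scale the difference of medians was 0.96, 1.08 and 1.15 in replicates 1 to 3. Reads of a partner can be counted for its antisense gene, and the rule used counts. How far the higher median follows from the rule was not tested, and partners of genes below the threshold were not compared. The antisense genes lay below their partners, with a median log2 ratio of -2.16 ± 0.08 (SD, n = 3). At least 10-fold lower than the partner were 60 genes, and 48 were above it.

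Among the 48 above the partner, the following were chosen after their values were seen. Gm26642 stood at 4.16 ± 0.797 TPM opposite the epithelial factor gene Elf3 at 0.0167 ± 0.0289, and Gm10863 stood at 3.30 ± 0.682 TPM opposite the neural crest factor gene Sox10 at 0.0333 ± 0.0231. Gm27177 had 6.25 ± 1.51 TPM opposite the lysyl oxidase gene Loxl2 at 0.103 ± 0.0153. Gm26740 had 22.8 ± 8.56 TPM opposite Raet1e, a ligand of the receptor NKG2D, at 1.24 ± 0.984. Gm26740 and Gm10863 had whole counts in every library. Gm26642, Gm27177 and Gm26740 each overlap 2 coding genes on the other strand, and only the partner with the longest overlap is named. Counts of Gm26642 and Gm27177 were not whole, and neither were their sums with the named partner in every library. Reads of both had thus been divided with a gene other than this partner. Their level above the named partner carries this limit.

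**Figure D2:**
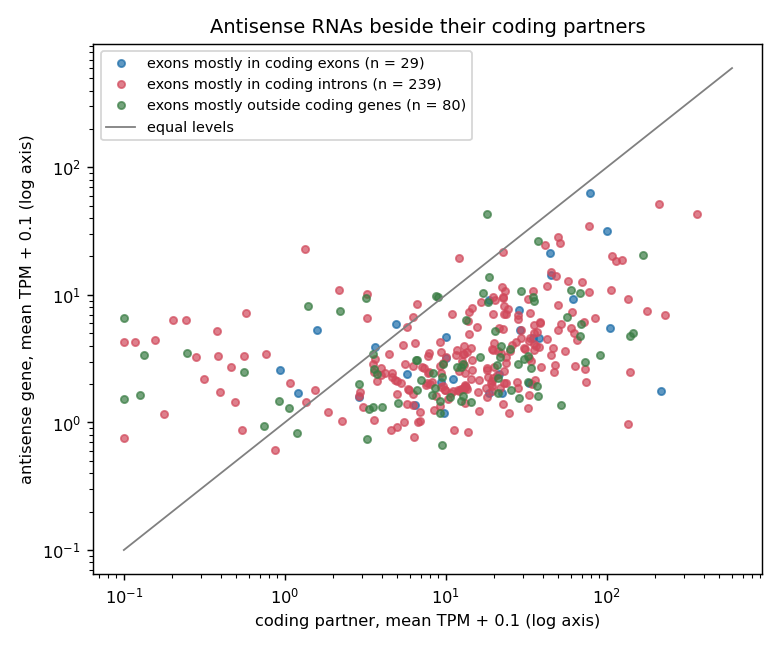
Mean TPM + 0.1 of 348 antisense genes against that of their coding partners (both axes log), coloured by where the exon bases lie. The intron class also holds genes without a share of 50% in any place. The grey line marks equal levels. Most points lie below the line, by a median log2 ratio of -2.16, and 48 lie above it.

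The genes were split by where their exon bases lie. At least 50% lay outside coding genes in 88 genes and opposite coding exons in 29. The other 239 formed an intron class, which also holds genes without a share of 50% in any place. BE692007, for instance, had 33.65% of its exon bases opposite introns. Median levels were 2.96 TPM in the intron class, 2.75 TPM outside coding genes and 3.84 TPM opposite coding exons. In this order, the median log2 ratio to the partner was -2.31, -2.14 and -1.95. All 29 genes opposite coding exons had counts that were not whole. No class had a median level far from the 2.82 TPM of the whole set.

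As a side-by-side value chosen after seeing the data, antisense genes wholly inside introns of 1 coding gene were set beside genes annotated as sense-intronic, which lie in introns on the same strand. Where the surrounding coding gene was at most at 1 TPM, 1 of 432 antisense and 0 of 98 sense-intronic genes reached a mean count of 50. Where it was between 10 and 50 TPM, 28.4% of 162 antisense and 48.2% of 112 sense-intronic genes did. The level was a median of 1.66 TPM for the antisense and 2.20 TPM for the sense-intronic genes there, and 3.17 and 2.35 TPM where the coding gene was above 50 TPM. Intronic genes of both strands thus had more reads inside coding genes of higher level. How much of this came from unspliced RNA of the coding gene was not tested.

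**Figure D3:**
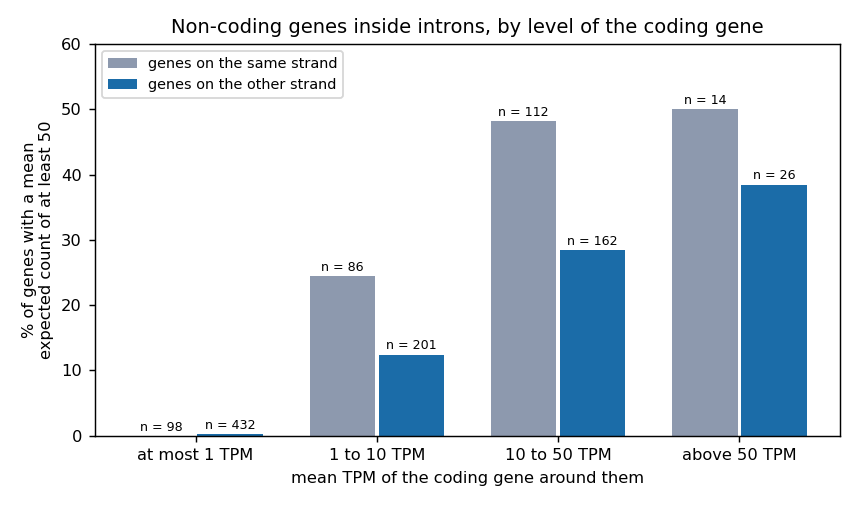
Share of non-coding genes wholly inside introns that averaged 50 expected counts or more (%), by mean TPM of the coding gene around them; grey bars are sense-intronic genes on the same strand, blue bars antisense genes, and n is the number of genes. Antisense genes go from 0.231% at hosts of at most 1 TPM to 38.5% at hosts above 50 TPM.

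Libraries were compared on log2 CPM, counts scaled to library size. The deviation of a gene in a library is its log2 CPM minus the mean of the other 2 libraries, and a gene was called where a library was at least 2-fold above or below each of the others. With 1 group there is no test of a condition, and no p-value is given. In all, 44 of the 356 genes (12.4%) were called in some library, against 9.05% of the 12096 genes of all types that averaged 50 counts or more. Among genes of 50 to 500 counts the shares were 12.2% and 10.8%, so the share of antisense genes was near that of all genes of like count.

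In replicate 1, 17 genes were called above (4.78%, all genes 3.80%) and 7 below (1.97%, all genes 2.71%). In replicate 2, 3 were above (all genes 0.355%) and 9 below (all genes 1.07%), and in replicate 3, 8 were above (all genes 0.967%) and 4 below (all genes 0.537%). Gm7008, 9230105E05Rik, 1700019L13Rik and Gm49774 were called in opposite directions in 2 libraries. The median deviation of the set was 0.02, 0.04 and -0.14 in replicates 1 to 3, and that of all genes lay within 0.01 of 0. The median SD of log2 CPM was 0.36 for the set, 0.28 for all genes and 0.32 for all genes of 50 to 500 counts.

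**Figure D4:**
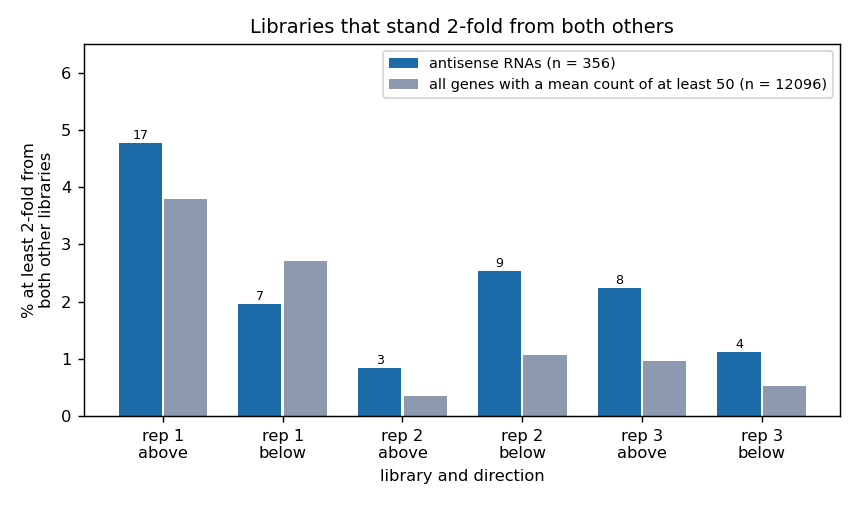
Percent of genes at least 2-fold above or below both other libraries, by library and direction; blue bars are the 356 antisense genes, with the number called above each bar, and grey bars are all 12096 genes averaging 50 counts or more. The largest shares are those of replicate 1 above the others, 4.78% and 3.80%.

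Replicate 1 was low for AC119228.1, opposite Cd274. AC119228.1 had 952, 3114 and 3957 counts, a replicate 1 deviation of -1.98. Cd274 had 1572, 5684 and 5487 counts, a deviation of -1.93, so both genes of the pair were low in the same library. A930007I19Rik, whose longest overlap is with Pdcd1lg2 (the ligand PD-L2, itself at 0.147 ± 0.0764 TPM), was called below as well. Of its exon bases, 90.9% lie outside coding genes. It also starts head to head with Ric1, 288 bases away, which had 1791, 2803 and 2874 counts. Gm15601, opposite the phospholipase gene Ddhd1, had 220, 541 and 539 counts, and Ddhd1 deviated by -1.21 beside -1.38 for Gm15601. 5031434O11Rik, whose nearest start lies 844 bases from one of the methyltransferase gene Setd7, had 61, 135 and 203 counts, while Setd7 deviated by only -0.67.

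Higher in replicate 1 were 9230105E05Rik, opposite introns of the chromatin protein gene Hmga2, and Gm20655, beside the taxilin gene Txlnb. 9230105E05Rik had 299, 103 and 41 counts in replicates 1 to 3, and Hmga2 had 2034, 981 and 533, so both followed the same order. A second gene opposite Hmga2, 1700006J14Rik, was also called above in replicate 1. Gm20655 had 122, 23 and 30 counts and Txlnb 146, 20 and 27. Gm26759 went another way from its partner. It had 249, 57.4 and 38.4 counts, with 83.1% of its exon bases opposite exons of Irf2bp2, a corepressor gene, which had 4122, 4095 and 6354.

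Replicate 2 was high for Gm15655, Gm15356 and Gm37401. Gm15655 had 109, 290 and 97.4 counts and lies wholly opposite exons of Maf, a macrophage transcription factor gene whose counts were 11324, 15289 and 15537. Gm15356, opposite introns of March1 (a ubiquitin ligase that lowers MHC class II), had 252, 774 and 391 counts, and March1 had 561, 1568 and 1237. Gm37401 lies opposite the GTPase gene Rhoa and had 47.8, 108 and 47.6 counts, while the deviation of Rhoa was 0.01. Gm15356 is the only one of these 3 with whole counts.

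Early-response genes, which macrophages transcribe within minutes of Tlr4 signalling, were the partners or head-to-head neighbours of 12 antisense genes of any count out of a list of 82 such genes. Of these 12, 2 were among the 356. Gm26885 starts head to head with Pim1, a kinase gene. Their bodies overlap by 1173 bases, and the nearest pair of annotated starts lies 45 bases apart. It had 172, 111 and 493 counts and Pim1 1842, 2383 and 5004, so replicate 3 was highest for both. 1700019L13Rik overlaps both Cx3cr1, the fractalkine receptor gene, and Csrnp1, an immediate-early gene, on the other strand, and 1 of its annotated starts lies 123 bases from a start of Csrnp1. It had 144, 51 and 457 counts, Csrnp1 had 449, 216 and 1128, and Cx3cr1 had 53, 8 and 16. Replicate 3 was highest and replicate 2 lowest for the antisense gene and for Csrnp1, while Cx3cr1 was highest in replicate 1 at low counts.

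Gm7008, which starts near Ifrd1, a transcriptional coregulator gene induced by growth factors, showed the largest deviation of the set. It had 160, 61.7 and 740 counts, and Ifrd1 had 4966, 3908 and 7782. Gm40578, opposite the TNF-induced gene Tnfaip2, had 772, 610 and 1624 counts, and Tnfaip2 had 7944, 8243 and 19916. Replicate 3 was highest in both pairs. Just below the count threshold lay Kdm6bos, opposite the histone demethylase gene Kdm6b, with 35, 25 and 87 counts, and Junos, beside Jun, with 41.4, 27.2 and 71.8, in which replicate 3 was highest too. Il1bos averaged 23.0 counts, and Ptgs2os, next to the prostaglandin synthase gene Ptgs2, had 1, 4 and 7. These counts were not scaled to library size, and replicate 3 held the most counts. How many of all antisense genes were highest in replicate 3 was not determined. Of the 12 antisense genes at early-response genes, 10 were highest in replicate 3, some of them at few counts, and 1 was at 0 in every library. The remaining one, Gm49482 opposite the receptor gene Gpr84, had 20.9, 2.63 and 0 counts, and Gpr84 had 390, 13.4 and 110. AC137853.2 had 3.91, 5.26 and 15.4 counts, while its neighbour Dusp5, a phosphatase gene, was highest in replicate 1 with 815, 223 and 590.

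Low in replicate 3 were 9230105E05Rik, Gm26672 and Gm42435. Gm42435, opposite introns of the cell cycle kinase gene Cdk6, had 258, 185 and 95 counts, and Cdk6 had 6473, 4556 and 3963. Gm26672, opposite exons of the protocadherin gamma genes, had 130, 70.6 and 35.9. Gm47079, opposite the adhesion molecule genes Icam4 and Icam5 and low in replicate 2, had 69.2, 17.1 and 91.9 counts, the smallest count of any of the 356 genes in a library, while Icam4 was at 0 in each library.

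Over all calls, 42 of 48 concerned an antisense gene whose partner averaged 50 counts or more. In 38 of the 42 the partner deviated in the same direction, and in 10 the partner was called too. The 48 calls fall on 44 genes, because 4 genes were called in 2 directions. The same shares were not determined for uncalled genes or for other gene pairs, so these counts have no background beside them. Across the 316 antisense genes with such a partner, Pearson's r between the deviation of the gene and that of its partner was 0.69 in replicate 1, 0.43 in replicate 2 and 0.58 in replicate 3 (Spearman's rho 0.63, 0.44 and 0.51). The 3 values share libraries, and the points share library, depth and, where counts were divided, reads, so they are descriptions. For the 134 genes with whole counts r was 0.80, 0.54 and 0.57, and for the 182 others 0.62, 0.36 and 0.58. For 10130 pairs of neighbouring protein-coding genes it was 0.13, 0.17 and 0.20, and for 431 antisense genes with 10 to 50 counts 0.61, 0.25 and 0.46.

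By position, r was 0.78, 0.52 and 0.63 for the 217 genes of the intron class and 0.61, 0.31 and 0.57 for the 71 mostly outside coding genes. It was 0.41, 0.18 and 0.41 for the 28 mostly opposite coding exons. For the 18 genes mostly outside coding genes with whole counts r was 0.82, 0.35 and 0.60 (rho 0.71, 0.22 and 0.50). A whole count of the antisense gene does not mean that the count of its partner was undivided. The part of divided reads and of unspliced partner RNA in these correlations was not tested.

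**Figure D5:**
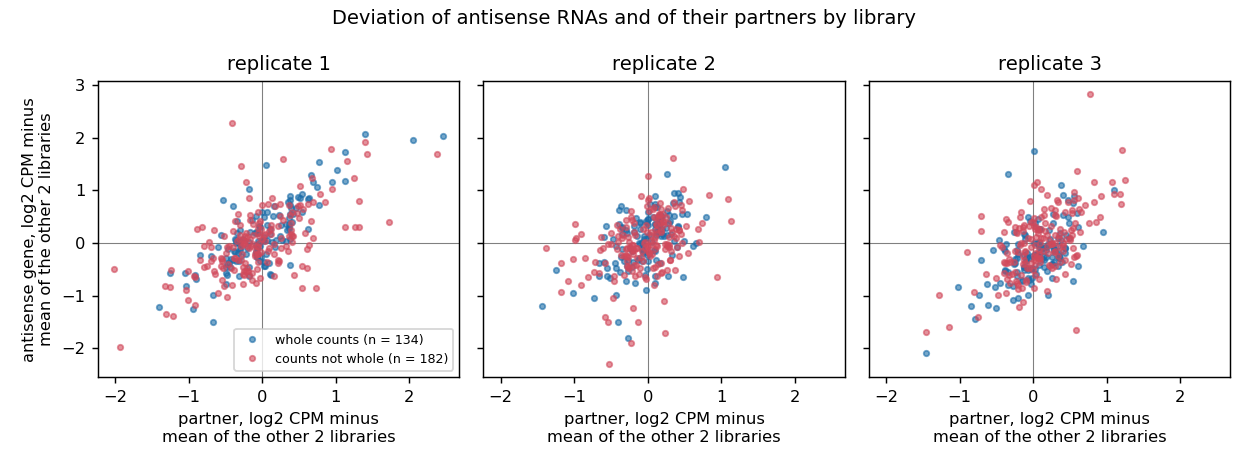
Deviation of each antisense gene (vertical) against that of its coding partner (horizontal), both as log2 CPM minus the mean of the other 2 libraries, 1 panel per library; blue points are 134 genes with whole counts and red points 182 genes whose counts are not whole. Points run from lower left to upper right in each panel, with r of 0.69, 0.43 and 0.58.

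Small RNA genes lie on the same strand within 17 of the 356 genes. Zfas1, whose introns hold the small nucleolar RNA gene Snord12, starts head to head with the antiviral helicase gene Znfx1 and had 845, 413 and 571 counts, or 26.2 ± 10.9 TPM. Znfx1 had 4321, 4546 and 6176 counts, so the library orders of this pair differed. 1810032O08Rik holds Snord1a, Snord1b and Snord1c and was called above in replicate 1.

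A list of 43 antisense and related non-coding RNAs known by name was looked up as a whole. Of these, 36 were found by symbol, 15 met the rule on transcript types and 4 were among the 356, namely Kcnq1ot1, Airn, Zfas1 and Rab10os. Rab10os, opposite the vesicle GTPase gene Rab10, had 438, 551 and 713 counts. Nespas, of the imprinted Gnas cluster, had 21, 8 and 9 counts, and Tsix, the antisense RNA of Xist, had 14.3, 8.42 and 3.26. Xist itself had 134067, 118733 and 91595 counts, and how many of its reads were counted for Tsix was not tested. Dnm3os had 5, 6 and 4 counts and Hotairm1 5, 1 and 7, and Ptgs2os and Gm15441 averaged under 5. The developmental antisense genes Emx2os, Six3os1, Wt1os, Uchl1os and Foxo6os were at 0 in each library, which allows up to 3 counts, or 0.162, 0.173 and 0.143 CPM in replicates 1 to 3.

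The deposited tables gave different counts for some genes. After scaling to the same total, the second table was at least 2-fold higher for 53 of the 356 genes (14.9%, all genes 4.42%) and at least 2-fold lower for 7 (1.97%, all genes 0.471%). Gm48754, opposite introns of the GTPase gene Rala, had 168, 207 and 113 counts in the first table and 3127, 4535 and 2582 in the second. Gm4117, with 52997 exon bases opposite the repair gene Xrcc4, had 482, 356 and 216 against 3601, 4917 and 2690. Gm20234, opposite the immune regulator gene Slfn2, was higher as well. In the other direction, Gm20659 and Gm47123 lie wholly opposite exons of the phosphatase gene Dusp3 and the cathepsin L gene Ctsl. They averaged 81.7 and 64.3 counts in the first table and were listed at 0 in every library in the second. Gm26716, opposite exons of the syndecan gene Sdc3, had 235, 340 and 419 counts in the first table but 0 in replicate 1 and 263 in replicate 2 of the second. The levels of these genes depend on how reads were assigned.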

How the data were processed

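The members and gene lists were chosen with earlier results of these data known. Per the file headers, the authors deposited expected counts and TPM per gene and transcript, and a second transcript table with estimated counts and TPM. The posterior standard deviation of each count, deposited by the authors, was read as a score and used only to describe precision. The labels name mm10, and the notes deposited with the libraries name GENCODE M21, from which types and coordinates (GRCm38) were taken; tools and strand setting: not given in the sources used here. Rows that name no gene, 0.0641% to 1.24% of counts, were left out. A gene at 0 could hold up to 3 counts, which correspond to 0.143 to 0.173 CPM, counting error only.

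Expected counts were rounded, and log2 CPM was computed with edgeR 4.0.16 (TMM factors 1.07, 1.02 and 0.921 over genes averaging 10 counts or more, prior count 2). Ratios of TPM used a pseudocount of 0.1. No test between conditions was possible with 1 group. Alternatives included DESeq2 1.42.0 size factors and library totals.

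Named genes were the 12 with most counts, the 3 largest called deviations per library and direction, those with an early-response partner, the named antisense RNAs, the 3 on each side of the threshold and the 3 per direction that differed most between tables; others are said to be chosen later or illustrate a pair.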

Additional observations from a re-analysis of the deposited data

How the results depend on the processing

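Size factors from DESeq2 left 44 genes called and library totals 49. Totals shifted the median deviation of all genes to 0.14 in replicate 1 and -0.17 in replicate 3, and the set's to 0.16 and -0.32. Of the other alternatives, taking genes from a mean count of 100 gave a median of 3.92 TPM, a partner difference of 1.47, a log2 ratio of -1.98, 195 genes with an overlap, 86 with a head-to-head start, 27 called and 20 that differ between tables. Starts within 300 bases gave 95 head-to-head genes. The second table gave a share of 0.614%, 34.2% for the 10 most abundant genes, a median of 2.02 TPM, a partner difference of 1.69, a ratio of -1.90 and a median SD of 0.29. A pseudocount of 1 gave a ratio of -1.84. A fold of 1.5 called 136 genes and a fold of 3 called 8; between tables these gave 116 and 24. Genes with whole counts, an alternative chosen after seeing the data, gave 17 called of 154 (11.0%). Leaving out 1 library gave a median SD of 0.27 to 0.32, each SD then resting on fewer libraries. With replicate 1 left out, 34 genes differed at least 2-fold between the remaining libraries; without replicate 2 it was 62 and without replicate 3 it was 44. Genes near 50 counts carry the largest counting error. No paired analysis was possible because the study has 1 group.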

Other observations

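Snhg14, which the rule leaves out by name, averaged 607.9 expected counts. Several RNAs of the named list do not meet the rule on transcript types in this annotation and so lay outside the set. Lncpint had 2007, 2451 and 2399 counts in replicates 1 to 3, Mir22hg, the host of miR-22, had 3135, 1304 and 2084, and the imprinted Peg13 had 487, 543 and 607. Dleu2, the host of miR-15a and miR-16, averaged 5839 counts, between the values of F630028O10Rik and Tug1. Pvt1, beside Myc, had 514 counts in replicate 1 against 69 and 77.1 in the others.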
